A study of Mus musculus with 2 samples.

Results

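The genes described here are 5 that are used to mark enteric glia, Schwann cells and their precursors: S100b, Gfap, Fabp7, Foxd3 and Cdh19. They were chosen by name, and all 5 were found among the 43346 Ensembl genes of both gene tables by matching identifiers without their version to GENCODE symbols. Total RNA longer than 200 nt was sequenced from stomachs of mouse embryos of the B6NCrl strain at embryonic day 16.5, from 10 ng per library with spike-in RNA. There is 1 group, healthy male and female embryos pooled, for which the labels name no treatment or mutation, and it has 2 biological replicates. Each replicate was a pool of stomachs (41 embryos went into replicate 2, and the pool size of replicate 1 is not stated), so differences between single embryos and between cell types are not resolved.

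Enteric glia are the supporting cells of the ganglia in the gut wall, and Schwann cells are those of peripheral nerves. Both descend from the neural crest, whose cells colonise the foregut along its length or follow the vagus nerve into the organ as Schwann cell precursors. The glial state is held by the transcription factor Sox10 and fed by neuregulin through the ErbB3 receptor, and glia in ganglia make little or no myelin.

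The gene tables held 44567153 expected counts (estimated reads per gene) in replicate 1 and 25677702 in replicate 2. Stomach genes were present in both, with the stomach specification factor Barx1 at 47.3 and 39.5 TPM and the pepsinogen gene Pga5 at 113 and 182 TPM in replicates 1 and 2. Other genes of the stomach lining differed more between the libraries, with Gkn1, a gastrokine gene of surface mucous cells, at 5.12 and 17.98 TPM and Atp4a, a proton pump gene of parietal cells, at 17.8 and 37.2 TPM, so that 3 of the 4 stomach genes checked were higher in replicate 2. Replicate 1 stood apart in skeletal muscle genes: all 8 of 8 on the list were higher there, and they summed to 2079 TPM in replicate 1 and 173 in replicate 2. TPM is a gene's share of all transcripts after correction for length, and levels are compared between genes on this scale. Where a mean ± SD is given, n = 2 libraries. No conditions were compared, so most values are given by library.

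Fabp7 dominated the set. Its product, brain lipid-binding protein, is a fatty acid chaperone of radial glia and of glial progenitors in the peripheral nervous system. The gene (ENSMUSG00000019874) lies on the plus strand of chromosome 10, from 57784881 to 57788450 on GRCm38. It stood at 42.9 TPM in replicate 1 and 42.4 TPM in replicate 2, a mean of 42.7 ± 0.332, from 930 and 514 expected counts. The exact 95% Poisson intervals on those counts were 871 to 992 and 471 to 560; these and the later intervals cover counting error only. Fabp7 was the only member well inside the range of abundant genes, at percentile 83.2 of protein-coding genes by mean TPM. It made up 90.0% of the summed TPM of the 5 genes in replicate 1 and 90.9% in replicate 2.

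The remaining members were near the level at which a gene counts as detected here, 1 TPM in both libraries. S100b, which encodes a calcium-binding EF-hand protein found in glia of the gut and of nerves, lies on the plus strand of chromosome 10 from 76253853 to 76261159 (ENSMUSG00000033208). It stood at 2.16 TPM in replicate 1 and 2.27 TPM in replicate 2, from 92 and 54 expected counts with intervals of 74.2 to 113 and 40.6 to 70.5. Those are intervals on counts at unlike depth. On the TPM scale they were 1.74 to 2.65 and 1.71 to 2.96, so the levels of S100b did not differ beyond counting error on that scale. Cdh19, a type II cadherin described in Schwann cell precursors of the rat, lies on the minus strand of chromosome 1 from 110888326 to 110977584 (ENSMUSG00000047216). It stood at 1.09 TPM in replicate 1 and 0.90 TPM in replicate 2, from 121 and 54 expected counts. It thus passed 1 TPM in replicate 1 and missed it in replicate 2, and is the member nearest to that threshold.

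Gfap and Foxd3 were lowest. Gfap encodes the intermediate filament protein of astrocytes, which is also made by non-myelinating Schwann cells and by a part of the enteric glia, and it lies on the minus strand of chromosome 11 from 102887336 to 102900912 (ENSMUSG00000020932). It stood at 0.74 TPM in replicate 1 and 0.62 TPM in replicate 2, from 58 and 27 expected counts with intervals of 44.0 to 75.0 and 17.8 to 39.3. Both values lie well above the 0.0383 and 0.0689 TPM that a count of 0 would have allowed (3 counts), so a low level was measured. Foxd3, a forkhead repressor that keeps neural crest cells in a progenitor state, is a gene with 1 exon on the plus strand of chromosome 4 from 99656299 to 99658622 (ENSMUSG00000067261). It stood at 0.79 TPM in replicate 1 and 0.45 TPM in replicate 2, from 54 and 17 expected counts with intervals of 40.6 to 70.5 and 9.90 to 27.2. Foxd3 was the member whose libraries lay furthest apart.

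**Figure D1:**
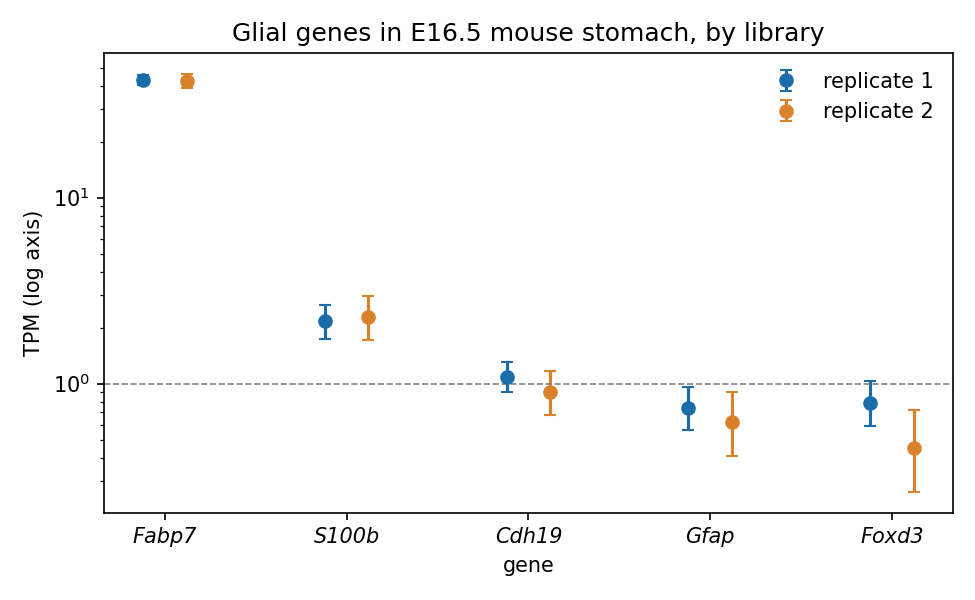
TPM of the 5 glial genes on a log axis, replicate 1 left of replicate 2, with bars for the exact 95% Poisson interval of the count and a dashed line at 1 TPM. Fabp7 sits at 42.9 and 42.4 TPM, and the other 4 genes lie between 0.45 and 2.27 TPM.

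Of the 5 members, 2 (Fabp7 and S100b) reached 1 TPM in both libraries, and 64.3% of all protein-coding genes did. The members were few and chosen by name, and the number detected follows the threshold: 4 reached 0.5 TPM in both libraries, all but Foxd3, and 3 reached 1 TPM when replicate 1 was taken alone. The share of all protein-coding genes was not computed at these other settings, so these counts cannot be set against it.

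RefSeq promoter windows (GRCm38.p6) matched 4 of the 5 members: Fabp7, S100b, Gfap and Foxd3. The 250 bases before the start site are printed for Fabp7, the highest member, at chr10:57784673-57784922 on the plus strand, and for Foxd3, the lowest by mean, at chr4:99656049-99656298 on the plus strand. The RefSeq start of Fabp7 lies a little inside the GENCODE gene, so the end of that window overlaps the gene's span given above. It is the annotated start of transcript Fabp7-202, which carried 1.70% and 1.01% of the gene's TPM in replicates 1 and 2. Fabp7-201, which carried 98.3% and 99.0%, starts upstream of it at 57784881, so the distances below are not from its start. Both windows run 5′ to 3′, with the motif matches described next in capitals.
Fabp7: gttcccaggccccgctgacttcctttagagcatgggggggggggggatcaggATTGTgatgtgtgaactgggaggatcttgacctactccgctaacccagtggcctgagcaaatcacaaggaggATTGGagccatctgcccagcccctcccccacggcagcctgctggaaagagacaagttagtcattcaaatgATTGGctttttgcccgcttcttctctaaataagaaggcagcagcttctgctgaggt
Foxd3: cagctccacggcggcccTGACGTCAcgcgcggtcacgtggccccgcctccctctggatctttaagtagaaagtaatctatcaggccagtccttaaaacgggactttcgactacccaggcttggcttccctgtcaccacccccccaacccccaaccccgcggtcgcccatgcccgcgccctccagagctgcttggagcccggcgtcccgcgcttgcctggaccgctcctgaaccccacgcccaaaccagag

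In all, 7 short motifs were searched on both strands: the SOX motifs ACAAT and ACAAAG, the RBPJ motif GTGGGAA, the CCAAT box, TATAAA, the cyclic AMP response element TGACGTCA and the POU octamer ATGCAAAT. In Fabp7, ACAAT on the reverse strand begins 198 bases before the RefSeq start. CCAAT, also on the reverse strand, begins 126 and 56 bases before it. These motifs are common, since ACAAT is in 27.7% and CCAAT in 33.8% of all 32851 promoter windows of the same length. The palindromic TGACGTCA lies in the Foxd3 window 233 bases before the start and is found in 1.55% of windows. S100b held CCAAT at 202 and 20 bases before its RefSeq start. Its window ends at 76253835, a little upstream of the GENCODE start of its only transcript at 76253853, so these distances are not from the latter. The Gfap window held none of the 7. That window ends at the start of transcript Gfap-202, which carried 21.3% and 21.0% of the gene's TPM in replicates 1 and 2. The leading transcript, Gfap-201, starts further inside the gene, so the bases directly before its start were not searched. No motifs overlapped each other in these windows. A match is a string of letters and not a measured binding site.

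The order of the levels was Fabp7, S100b, Cdh19, then Gfap and Foxd3. On the log2(TPM + 0.1) scale Fabp7 exceeded S100b by 4.21 ± 0.06 (SD, n = 2), which is 19.9-fold in TPM in replicate 1 and 18.7-fold in replicate 2. S100b exceeded Cdh19 by 1.09 ± 0.23 and Cdh19 exceeded Gfap by 0.49 ± 0.02, each with the same sign in both libraries. The small SD for Cdh19 over Gfap does not make that order sure, as their counting intervals overlapped in both libraries. On the TPM scale they were 0.90 to 1.30 and 0.56 to 0.96 in replicate 1. In replicate 2 they were 0.68 to 1.17 and 0.41 to 0.90. With posterior mean TPM the levels were closer, at 1.13 and 0.98 for Cdh19 and 0.88 and 0.86 for Gfap in replicates 1 and 2. Gfap and Foxd3 could not be ordered: the difference was -0.08 in replicate 1 and 0.39 in replicate 2, with a mean of 0.15 ± 0.33. These are differences larger or smaller than the spread of 2 libraries, and no test was run.

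Sox10 lay between Fabp7 and S100b, at 4.14 and 4.50 TPM in replicates 1 and 2. Fabp7 exceeded Sox10 by 3.28 ± 0.09 on the log2(TPM + 0.1) scale, which is 10.4-fold and 9.43-fold in the libraries. S100b differed from Sox10 by -0.93 ± 0.03, Cdh19 by -2.02 ± 0.26, Gfap by -2.51 ± 0.24 and Foxd3 by -2.66 ± 0.57. All 5 differences kept their sign in both libraries. In bulk tissue fewer glial cells and less RNA per glial cell cannot be told apart, so none of these values counts cells.

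Most of the listed genes of glial progenitors and enteric glia were detected. Of 14, 12 passed the threshold, a share of 85.7% beside the 64.3% of all protein-coding genes. The median of the 14 was 5.20 ± 0.177 TPM, beside 5.60 ± 0.0141 TPM over all protein-coding genes. The endothelin receptor gene Ednrb, which neural crest cells need to colonise the gut, led with 81.5 ± 3.30 TPM, ahead of the neuregulin receptor gene Erbb3 at 28.9 ± 4.20 and Entpd2, an ectonucleotidase of enteric glia, at 14.9 ± 1.99. Sox8, a relative of Sox10, stood at 2.84 ± 0.283 TPM. Ngfr, the neurotrophin receptor gene by which crest-derived gut cells are often isolated, stood at 10.7 and 12.6 TPM in replicates 1 and 2. Sox2, a progenitor factor kept by enteric glia, was at 5.87 and 5.39 TPM, and Ptprz1, a receptor phosphatase gene of glia, at 2.76 and 3.27 TPM. These lay above S100b in both libraries, whereas the collagen gene Col28a1, made around peripheral glia, lay below it at 1.57 and 1.79 TPM. The 2 that missed were Gpr37l1, a receptor gene of mature glia, at 1.04 and 0.75 TPM and the potassium channel gene Kcna1 at 0.50 and 0.42 TPM in replicates 1 and 2. Ednrb, Erbb3 and Sox2 are also expressed outside the neural crest, so their levels cannot be assigned to glia. In bulk tissue the levels of the other genes on this list cannot be assigned to glia alone either.

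Genes of the Schwann cell line and of myelin varied widely. Of 9 genes of Schwann cell precursors and immature Schwann cells, 6 were detected, a share of 66.7% beside the 64.3% of all protein-coding genes. The median of the 9 was 2.89 TPM in each library. Gfra3, a receptor subunit gene of Schwann cell precursors, stood at 2.89 TPM in each library and Dhh, the hedgehog ligand of Schwann cells, at 1.02 and 0.85 TPM in replicates 1 and 2. Gfra3 thus stood near the level of S100b, and Dhh near that of Cdh19. The crest factor Tfap2a stood at 0.94 and 1.17 TPM, and Pax3, a factor of early neural crest, was at 0.10 and 0.08 TPM. Pmp22, at 174 ± 16.5 TPM, is made by many tissues beside myelinating cells.

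The regulators of myelination were low. Egr2, the master regulator of peripheral myelination, stood at 0.25 and 0.28 TPM in replicates 1 and 2, and Pou3f1, the factor that acts just before it, at 0.10 and 0.12 TPM. Mag, an adhesion protein of myelin, stood at 0.28 and 0.38 TPM. Altogether 6 of 10 myelination genes were detected, but those above 20 TPM were Mal, Cnp, Ncmap and Mbp, at means of 161, 32.8, 25.8 and 23.9 TPM. Prx, whose product periaxin scaffolds the myelinating Schwann cell, stood at 3.28 and 3.13 TPM, and its partner gene Drp2 at 1.66 ± 0.219 TPM. Mal and Cnp are known from many cell types, epithelia among them. In bulk tissue the levels of Ncmap and Mbp cannot be assigned to myelinating cells either. The neuregulin list had 4 of 7 genes detected, with the co-receptor gene Erbb2 at 47.2 ± 7.07 TPM and the ligand gene Nrg1 at 3.92 ± 0.537 TPM. The other ligand genes on the list were lower, with Nrg2 at 0.35 and 0.24 TPM and Nrg3 at 0.40 and 0.19 TPM in replicates 1 and 2. The protease genes Adam17 and Bace1, whose products cut neuregulin, stood at 30.2 and 34.2 TPM and at 20.8 and 22.1 TPM. In all, 28 of the 40 genes of these 4 lists were detected, a share of 70.0% beside the 64.3% of all protein-coding genes.

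**Figure D2:**
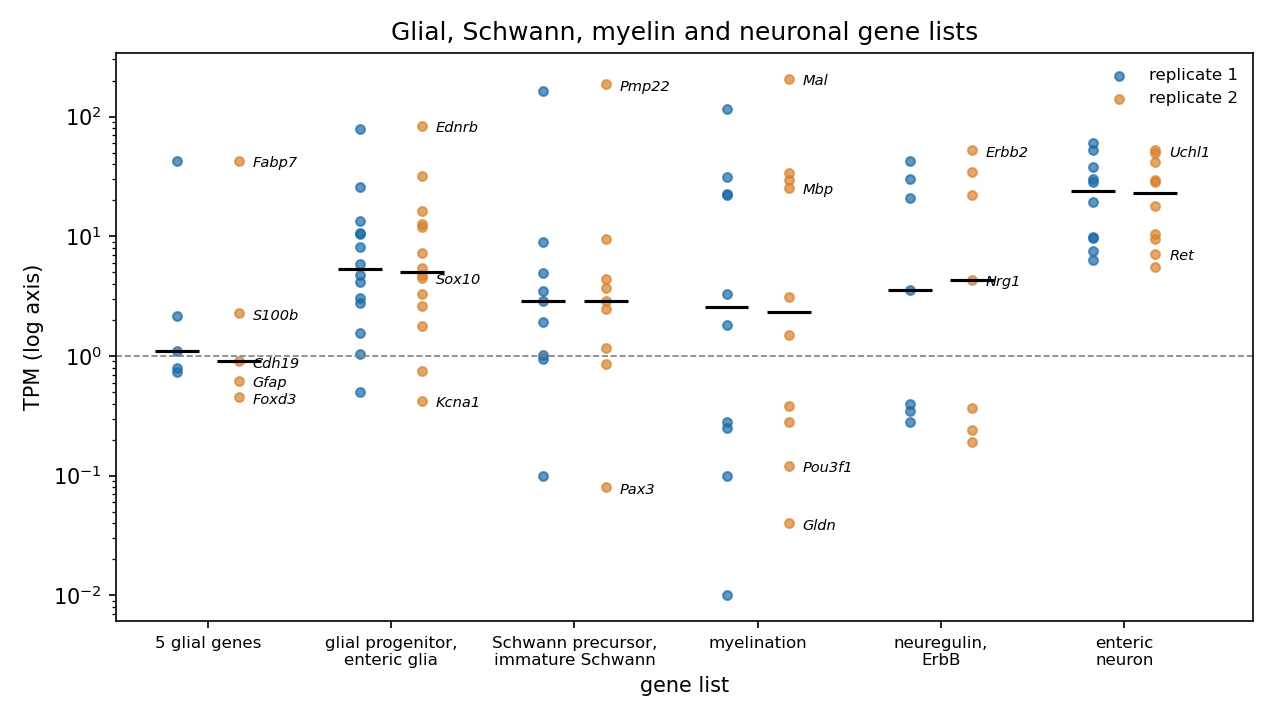
TPM of each gene on a log axis for the 5 glial genes, 4 related lists and an enteric neuron list, replicate 1 left of replicate 2, with black bars for list medians and a dashed line at 1 TPM. The median of the glial progenitor list is 5.33 and 5.08 TPM in replicates 1 and 2, and that of the neuron list is 23.9 and 23.1 TPM.

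The enteric neuron list had a higher median than the glial lists. All 10 of 10 enteric neuron markers were detected, beside 64.3% of all protein-coding genes. The list median was 23.5 ± 0.502 TPM, and the ubiquitin hydrolase gene Uchl1 led at 59.9 and 52.1 TPM in replicates 1 and 2. Fabp7 came near the level of the microtubule regulator gene Stmn2, which stood at 52.2 and 49.4 TPM. It differed from Stmn2 by -0.25 ± 0.04 on the log2(TPM + 0.1) scale, lower in both libraries.

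Markers of other cells that make some of the 5 proteins were mixed. The counts detected are to be read beside the 64.3% of all protein-coding genes. Melanocytes come from the same neural crest precursors, and 2 of 6 melanocyte markers were detected, with summed levels of 3.09 TPM in replicate 1 and 3.84 TPM in replicate 2 and Tyrp1 at 0 in both. Cartilage, where S100b is made, had 2 of 6 markers detected, Sox9 and Col9a1, summed levels of 29.4 and 28.8 TPM, and the defining Col2a1 at 0.69 and 0.61 TPM. Sox9, at 26.3 and 26.2 TPM, made up most of that sum. For astrocytes and oligodendrocytes 2 of 6 were detected, Gjb6 and Aqp4, with summed levels of 14.9 and 20.4 TPM and Olig2 at 0 in both. Gjb6, at 9.99 and 15.6 TPM, and Aqp4, at 3.96 and 3.85 TPM, made up most of that sum. In bulk tissue the levels of these 2 genes cannot be assigned to astrocytes or oligodendrocytes. Stellate cells of liver and pancreas can make Gfap, and 5 of 5 markers on that list were detected, among them Lrat at 2.51 and 2.74 TPM. The summed levels of the stellate list were 231 and 218 TPM, but Des, at 157 and 140 TPM, is also a smooth muscle gene. What part any of these cells had in the levels of the 5 genes was not tested.

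Each member belongs to a family with relatives in the same tissue, and S100b and Gfap were near the bottom of theirs. S100b lay below 13 of 15 other S100 genes and above S100z alone in both libraries. S100a11, an S100 gene of epithelia and other cells, stood at 1705 and 1961 TPM, and S100b differed from it by -9.63 ± 0.09 on the log2(TPM + 0.1) scale. Gfap lay below 9 of 10 intermediate filament relatives and above the neurofilament gene Nefh. It differed by -9.01 ± 0.15 from Vim, the vimentin gene of mesenchyme and immature glia, which stood at 402 and 397 TPM.

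Fabp7 was in the middle of its family. Fabp5, Fabp1, Fabp2 and Fabp4 were higher in both libraries and the other 4 of 8 relatives were lower. Fabp5, a chaperone of squamous epithelium, stood at 819 and 998 TPM, and Fabp9 was at 0 in both. The adipocyte and endothelial gene Fabp4 was closest above, at 65.1 and 53.6 TPM. Cdh19 lay above 5 and below 7 of the 12 other type II cadherins, with the mesenchymal cadherin gene Cdh11 highest at 75.8 and 73.4 TPM. Foxd3 was the highest of the Foxd genes listed although it was scarce itself: Foxd1, Foxd2 and Foxd4 each stood at 0.07 TPM or less in both libraries.

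**Figure D3:**
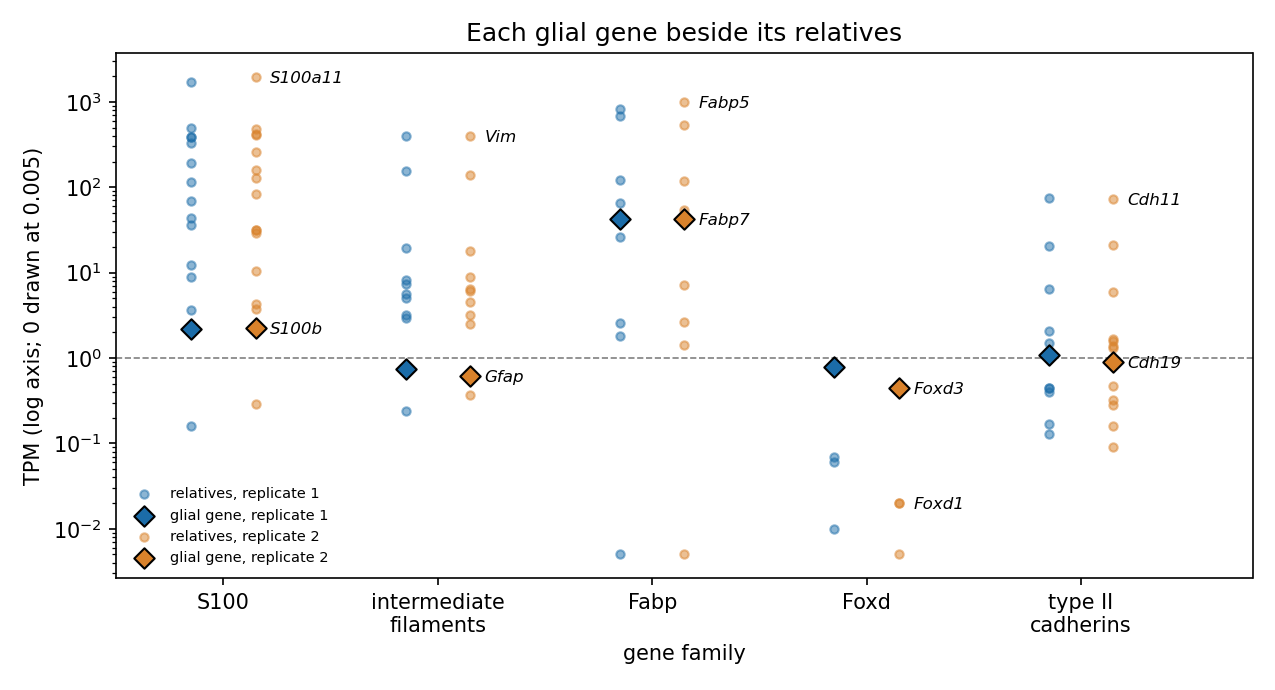
TPM on a log axis of each glial gene (diamonds) and its relatives (dots), replicate 1 left of replicate 2, with values of 0 drawn at 0.005. S100b and Gfap lie near the bottom of their families, Fabp7 and Cdh19 in the middle, and Foxd3 above the other 3 Foxd genes.

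The ratio between the libraries ran from near 0 for Fabp7 and S100b to 0.81 on the log2 scale for Foxd3. Expected counts were scaled by TMM, and the log2 ratio of replicate 1 over replicate 2 was 0.05 for Fabp7, with a 95% counting interval of -0.10 to 0.21. For S100b it was -0.03, with an interval of -0.53 to 0.48. These intervals hold 0, and that of Fabp7 is the narrowest, as its counts are the highest. For Cdh19 the ratio was 0.35, with an interval of -0.11 to 0.85, and for Gfap 0.29, with an interval of -0.38 to 1.02. Foxd3 had a ratio of 0.81, which is 1.76-fold, with an interval of 0.06 to 1.74. Of the 5 members, 0 lay beyond 2-fold, and 3.58% of all 17763 genes past the low-count filter did, 1.24% higher in replicate 1 and 2.34% higher in replicate 2. All 5 members passed that filter. With so low a share over all genes, a count of 0 among 5 is not a result about the members. The interval of Foxd3 lay above 0, which speaks of these libraries and not of a condition, as each side is a single library. With spike-in scaling, which shifts the median of all genes by -0.57, Fabp7, Cdh19 and Gfap turned below 0, to -0.52, -0.21 and -0.27. S100b was then at -0.60, and Foxd3 fell from 0.81 to 0.27. The interval of Foxd3 that lay above 0 is that of TMM scaling. No interval was computed with spike-in scaling, so whether it would hold 0 is not given.

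The related lists had medians near 0 between the libraries, and single genes in them ranged more widely. The median log2 ratio was -0.07 for the glial progenitor list, -0.05 for the Schwann list, -0.12 for the myelination list, -0.09 for the neuregulin list, 0.11 for the enteric neuron list and 0.00 for all genes past the filter. Of the 14, 8, 7 and 6 genes of the glial, Schwann, myelination and neuregulin lists that passed the filter, 0 lay beyond 2-fold, to be read against the 3.58% of all genes. The lowest ratio in these lists was that of Mal, at -0.67 with a counting interval of -0.71 to -0.62. The highest were those of Erbb4, a neuregulin receptor gene, at 0.84 with an interval of -0.23 to 2.30, and Nrg3, at 0.79 with an interval of -0.11 to 1.93. Erbb4 rests on 27 and 8 expected counts in replicates 1 and 2, and its TPM went the other way, at 0.28 and 0.37. The skeletal muscle list had a median of 4.57, with 8 of 8 genes beyond 2-fold. Foxd3 had the largest ratio of the 5 members, and what part the muscle transcripts of replicate 1, or the gastric lining genes that were higher in replicate 2, had in it was not tested.

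**Figure D4:**
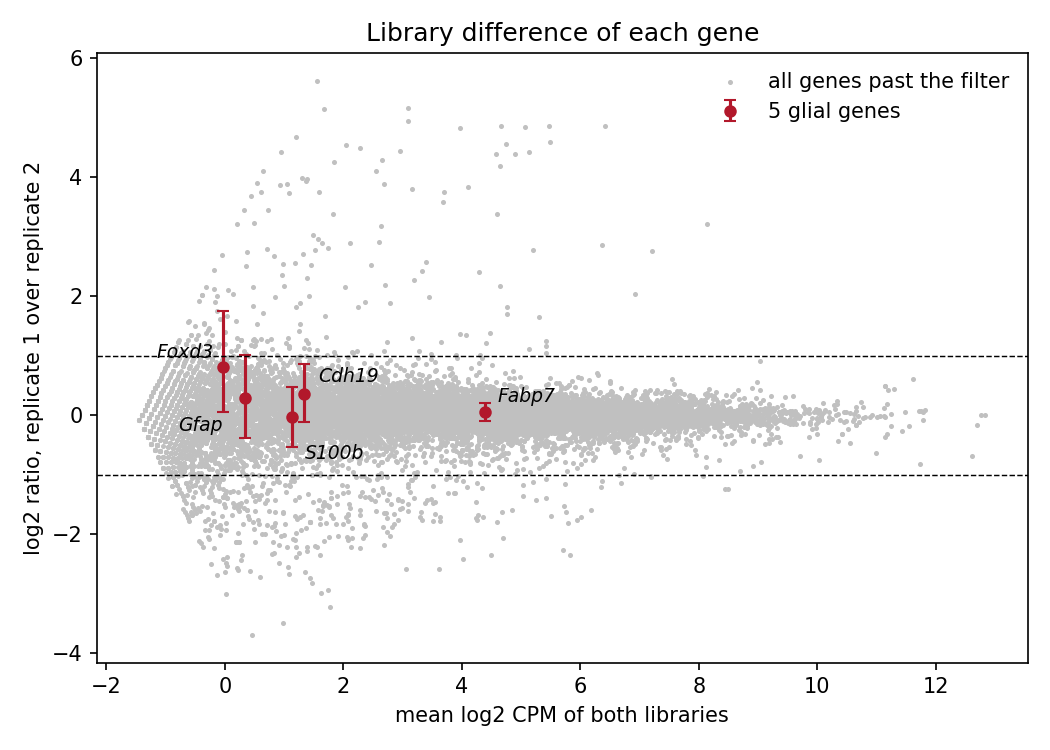
Log2 ratio of replicate 1 over replicate 2 against mean log2 CPM for all genes past the filter (grey) and for the 5 glial genes (red, with 95% counting intervals); dashed lines mark 2-fold. The 5 genes lie between -0.03 and 0.81.

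For all 5 members the same transcript led in both libraries. S100b and Foxd3 have 1 annotated transcript each, so for these genes that outcome was given. Fabp7-201, with 4 exons and 132 codons, carried 98.3% of the TPM of Fabp7 in replicate 1 and 99.0% in replicate 2. Cdh19-201, with 12 exons and 770 codons, carried 94.4% and 89.0%, and the rest fell to Cdh19-202, a transcript annotated without a reading frame, on 1.36 and 1.13 expected counts. With the authors' posterior mean TPM, Cdh19-202 carried 10.6% and 18.6%. Transcripts of a gene share sequence, so these shares are estimates.

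Gfap had the most divided output. Gfap-201, with 9 exons and 430 codons, carried 78.7% of the gene's TPM in replicate 1 and 79.0% in replicate 2. Gfap-202, with 8 exons and 428 codons, carried 21.3% and 21.0%, on 12.2 and 5.43 expected counts. Gfap-203, annotated without a reading frame, drew 0 counts in both. The authors' posterior mean TPM divided the gene differently: Gfap-203 then carried 13.8% and 25.3% in replicates 1 and 2, Gfap-202 19.5% and 18.4%, and Gfap-201 66.7% and 56.3%. On that scale Gfap-203 stood above Gfap-202 in replicate 2 and below it in replicate 1, so the order of the minor forms depends on the estimate. The authors' intervals for the TPM of Gfap-202 overlapped and ran from 0.0733 to 0.283 in replicate 1 and from 0.0306 to 0.299 in replicate 2.

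**Figure D5:**
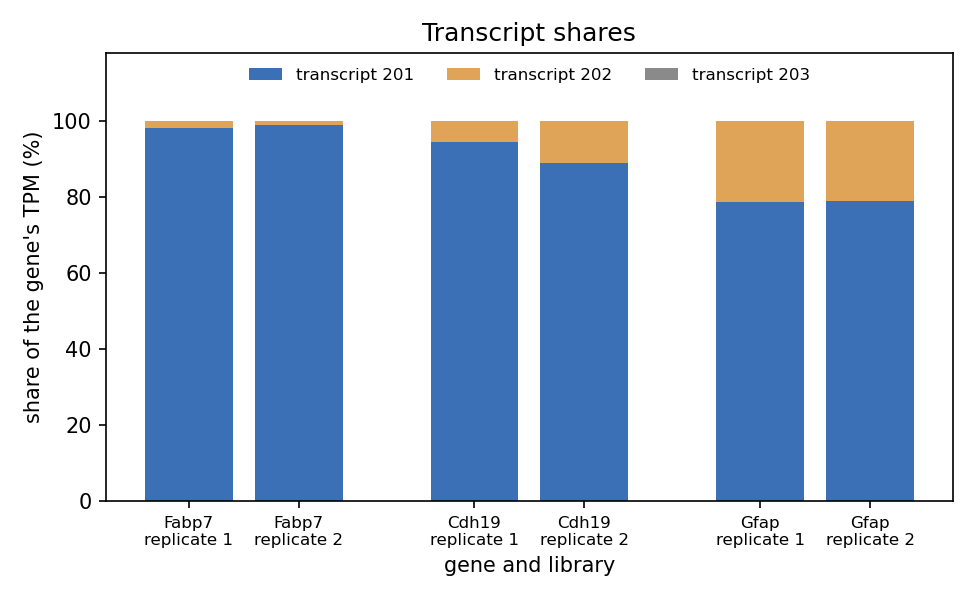
Share of each gene's TPM by transcript in percent, replicate 1 left of replicate 2, for the 3 members with more than 1 transcript. Transcript 201 leads in each, with 78.7% and 79.0% for Gfap in replicates 1 and 2.

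Expected counts of all 5 members were whole numbers in both libraries. The Dip2a gene on the opposite strand overlaps the span of S100b, and the long noncoding RNA gene Gm26668 overlaps that of Gfap, but each shares 0 exonic bases with the member. Dip2a stood at 8.13 and 8.58 TPM and Gm26668 at 0.68 and 0.81 TPM in replicates 1 and 2, so Gm26668 is as scarce as Gfap itself. The provisional loci Gm38255 and Gm36944 lie in introns of Cdh19 at 0.09 TPM or less. Gm23366, annotated as a miRNA gene, lies within the Foxd3 exon over 89 bases and was at 0 in both. The sources do not say whether strand was used in counting.

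Genes of like level were looked for among the 127 other genes on the lists, by distance of log2(TPM + 0.1) over the 2 libraries. Nearest to Fabp7 were Tubb3 (distance 0.18) and Erbb2 (0.30), and nearest to S100b was Hgf (0.04). Cdh19 lay nearest to Dhh (0.11) and Gpr37l1 (0.24). Gfap lay nearest to Col2a1 (0.09) and Slc1a2 (0.16), and Foxd3 to the same genes at 0.41 and 0.42, further than any other member from its neighbour. With 2 libraries this is a likeness of level only.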

How the data were processed

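Total RNA from 2 pools of embryonic mouse stomach was extracted with the mirVana method, per the labels' protocols, which also link a SMARTer Ultra Low kit manual. The files use build mm10 with annotation M4, per text that the authors deposited with the series; aligner and quantifier: not given in the sources used here. Each library has a gene table and a transcript table. In them the authors deposited expected counts, which are estimated reads and need not be whole. The TPM and posterior mean TPM that the authors deposited correct for length and sum over spike-ins too, and the deposited FPKM correct for length and depth. Bounds around TPM are also the authors', with no stated level.

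Symbols and positions came from GENCODE M21 (GRCm38), and 42442 of 43346 Ensembl genes had a symbol of their own. Rows with numeric identifiers held 74.99 and 27 expected counts and stayed out, as did 96 ERCC spike-ins (3.08% and 2.05% of counts). Rounded counts went through filterByExpr and TMM scaling (edgeR 4.0.16 under R 4.3.3; factors 1.01 and 0.992), and log2 ratios used a prior count of 2. Ratio intervals are exact conditional binomial and count intervals exact Poisson, both at 95%, and they cover counting error only, since reads without molecular identifiers are not independent molecules. DESeq2 1.42.0 gave other size factors. The ratio step was checked on simulated counts, in which changes were set only in genes with mean counts above those of Gfap and Foxd3. That check does not cover changes at the counts of these members. Tables were made with pandas 2.3.3 and numpy 2.4.6 in Python 3.11.15, intervals with scipy 1.17.1 and plots with matplotlib 3.10.9.

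Members and lists were chosen with earlier results of these data known, and the motifs after the sequences had been read. Named are all members, overlapping genes, genes of the 4 glial and neuregulin lists, the extremes of other lists and the 2 nearest genes per member. Some genes that the rule names are not reported here. No test was run: with 1 group there are no conditions to compare, and differences between genes are given as the mean and SD of 2 libraries. Replicates are called biological by the labels.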

Additional observations from a re-analysis of the deposited data

How the results depend on the processing

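No paired analysis was possible because there is 1 group. The number of members detected rose to 4 with a threshold of 0.5 TPM, and was 2 or 3 under the other 5 alternatives run (2 TPM, FPKM, posterior mean TPM and each library alone). Detected genes of the 4 related lists numbered 25 to 31 over the 6 alternatives, against 28. For neither count was the share of all protein-coding genes computed under these alternatives. The count of members beyond 2-fold was 0 under each of the 5 alternatives of scaling, filter, prior count and unit. The count over all genes was 636, and became 1427 with spike-in scaling and 2724 without the low-count filter, in which more genes of few counts are tested. Among the 25 alternative ratios of members, 3 left their counting interval, those of S100b (-0.60), Fabp7 (-0.52) and Cdh19 (-0.21), all with spike-in scaling. That scaling put the median of all genes at -0.57 and lowered the ratio of all 5 members. Gfap (-0.27) and Foxd3 (0.27) stayed inside their intervals, which are wider. Why the spike-in shares of the libraries differ was not tested. Leading transcripts matched for 5 of 5 members with FPKM, posterior mean TPM and coding transcripts alone. Mean levels moved beyond their SD for Gfap (0.87 with posterior mean TPM and 0.46 with FPKM, against 0.68 with TPM), Fabp7 (41.7 and 28.96, against 42.7), and, with FPKM, S100b (1.505, against 2.215) and Cdh19 (0.675, against 0.995); FPKM is a different scale, lower for all 5 members. Depth limits Foxd3 and Gfap most, at 17 and 27 counts in replicate 2.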

Other observations

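Gm12688, a long noncoding RNA gene on the opposite strand, lies head to head with Foxd3, with 1315 bases between their starts. It was chosen after its values had been seen. It stood at 1.19 TPM in replicate 1 and 0.68 TPM in replicate 2, from 22 and 7 expected counts. Foxd3 differed from it by -0.54 and -0.50 on the log2(TPM + 0.1) scale in the libraries, so both genes were higher in replicate 1 by a similar factor. Its counts are few: the counting interval of its log2 ratio ran from -0.43 to 2.32 and holds 0.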
